A study of Homo sapiens with 14 samples.

Results

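Keratins are the intermediate filament proteins of epithelial cells. Each filament is built from obligate heterodimers of an acidic type I and a basic type II chain, so the classes are needed together, and an unpaired chain is degraded. KRT8 and KRT18 form the first pair of simple epithelia, KRT7 and KRT19 are their usual companions in ducts and in breast luminal cells, and KRT14, KRT15 and KRT17 mark basal or stressed epithelium. The hair keratins, KRT31 to KRT40 of type I and KRT81 to KRT86 of type II, build the hair shaft. With one well-known exception the type II genes sit together on chromosome 12 and the type I genes on chromosome 17; the exception is KRT18, a type I gene that lies beside KRT8.

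All genes whose symbol was KRT, a number, and at most 1 further letter were taken from the table of 19410 genes, which gave 36 members. They comprised 19 type I genes, 16 type II genes, and the pseudogene KRT42P, which the naming rule admits through its final letter. Keratins that the rule would take but that are not among these 36, such as KRT5 and KRT6A, were not analysed here. Of the members, 11 reached 1 TPM (transcript level per unit length, scaled to one common total in each library) in at least 2 of the 14 libraries and were tested: KRT18, KRT19, KRT10, KRT15, KRT34, and KRT17 of type I, and KRT8, KRT7, KRT80, KRT81, and KRT86 of type II. The other 25 are described by their reads.

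The RNA came from MDA-MB-231 cells, a human triple-negative breast cancer line, grown untreated in DMEM with fetal bovine serum. The parental cells were compared with 6 CRISPR/Cas9-edited lines: SAP30-KO1 and SAP30-KO2, with 2 guide RNAs listed against SAP30, a SIN3 corepressor subunit; SIN3A/3B-DKO1 and SIN3A/3B-DKO2, in which the scaffold genes SIN3A and SIN3B were both targeted, with 1 guide listed for each; and MLL1-KO1 and MLL1-KO2, with 2 guides listed against the histone H3K4 methyltransferase MLL1 (KMT2A, listed as MLL). Per the study's methods, edited cells were transfected with a Cas9 and guide vector or infected with it as lentivirus and selected with puromycin, and several single knockout cells were expanded and mixed, so an edited line is a pool of clones. The labels name the control as parental, and no empty-vector arm was sequenced. Each of the 7 groups had 2 libraries, and nothing states that the 2 came from separate cultures, so p-values measure the spread between libraries, which may be technical. The study asked which genes depend on SAP30, SIN3A/3B, and MLL1.

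Libraries held 18415036 to 23162682 reads, as recovered from the table. SAP30 was at 78.9 and 82.8 TPM in parental cells and 2.75 to 4.96 TPM in the SAP30-KO libraries. For SIN3B the double knockouts gave -0.61 and -0.71 on the log2 scale and for MLL the MLL1-KO lines gave -1.64 and -0.97, all called lower. SIN3A RNA, however, was 55.1 to 62.5 TPM in the double knockouts against 43.1 and 45.4 TPM in parental cells, so the SIN3A edit is not visible in this RNA. MLL was also called lower in both SAP30-KO lines. Mesenchymal markers of MDA-MB-231 were high (VIM 5741 to 8805 TPM, CD44 267 to 611 TPM, ZEB1 53.7 to 71.9 TPM) and ESR1 and PGR were at or below 0.191 TPM and CDH1 at or below 1.25 TPM. Against the marker lists, SPARC, listed as high, reached at most 0.902 TPM, and ERBB2 and EPCAM, listed as low, stood at 21.9 to 42.8 TPM and 5.33 to 19.2 TPM. Leukocyte and fibroblast markers were at or below 1.05 TPM, and of the 3 endothelial markers PECAM1 was detected at 1.55 to 3.97 TPM, with higher calls in the SAP30-KO and MLL1-KO lines, and the others stayed at or below 0.252 TPM.

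Among the members, parental MDA-MB-231 cells made mostly simple-epithelial keratins despite their mesenchymal markers. In the 2 parental libraries KRT18 stood at 746 and 777 TPM, rank 144 of 19410 genes by the parental mean. KRT19 followed at 432 and 444 TPM, KRT8 at 412 and 419 TPM, and KRT7 at 273 and 269 TPM. These 4 transcripts made up 91.9% and 92.3% of the summed TPM of all members. KRT80, a type II keratin found in many epithelia, was at 104 and 105 TPM, KRT10, the type I chain of suprabasal epidermis, at 32.9 and 27.8 TPM, and KRT81 at 15.2 and 16.2 TPM. KRT15, KRT86, KRT17, and KRT34 lay between 0.834 and 5.37 TPM. On the level scale, neighbours in this order did not overlap in their 2 libraries from KRT18 to KRT15, although KRT19 and KRT8 were close (means 438 ± 8.76 and 415 ± 5.13 TPM, SD, n = 2). KRT86 stood at 2.33 and 2.46 TPM, KRT17 at 2.21 and 1.09 TPM, and KRT34 at 0.974 and 0.834 TPM.

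**Figure D1:**
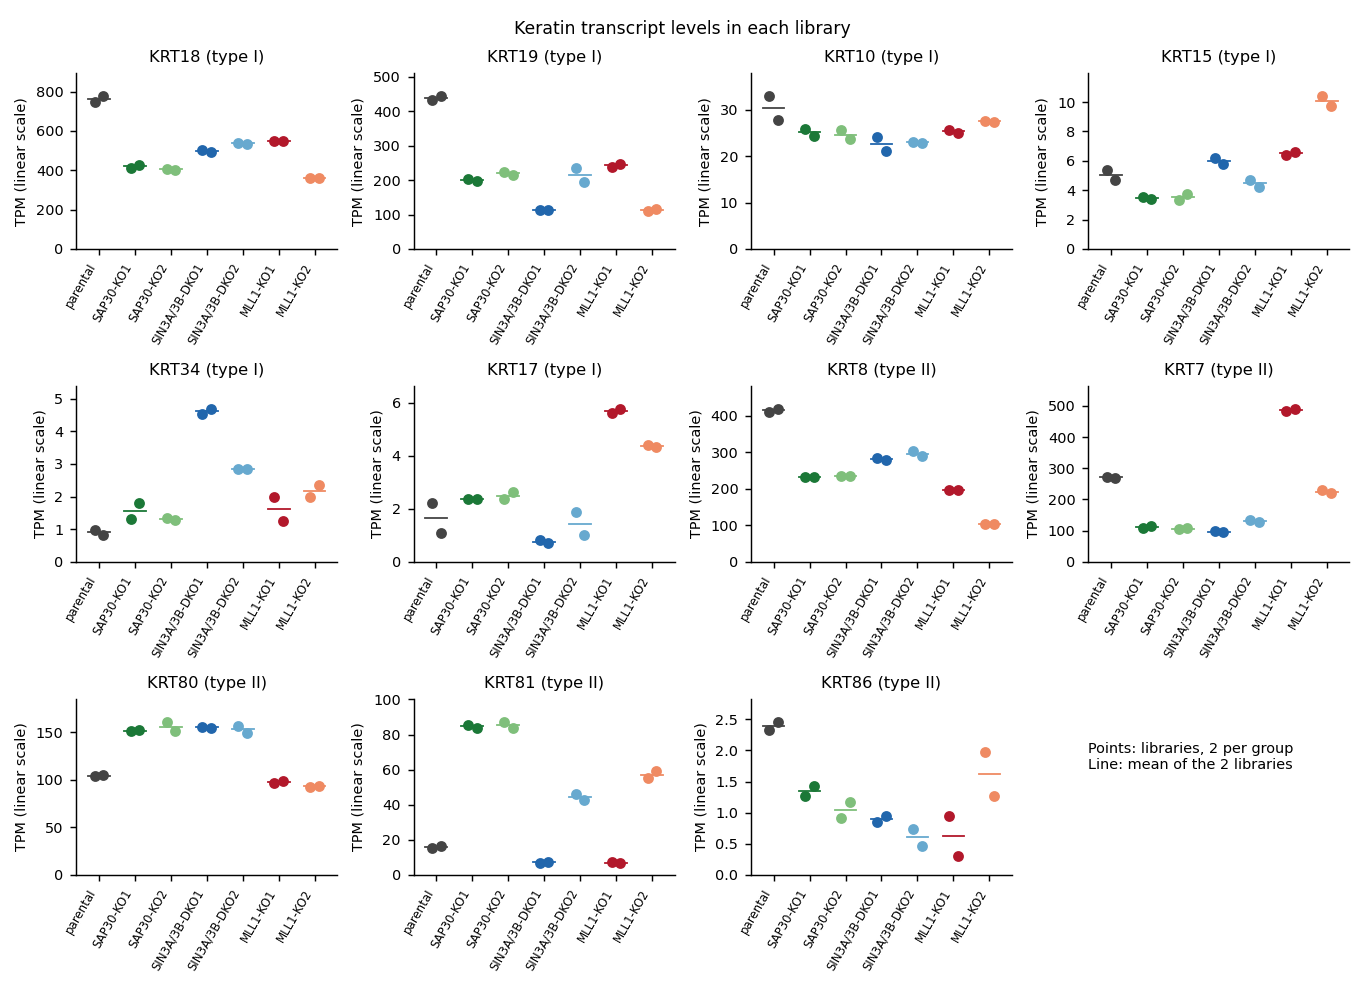
Level of each tested keratin in TPM on a linear scale from 0, 1 panel per gene, for the parental cells and the 6 edited lines; points are single libraries and the short line is the mean of the 2. KRT18, KRT19, and KRT8 were highest in the parental libraries, while KRT81 lay above them in 4 lines and below them in SIN3A/3B-DKO1 and MLL1-KO1.

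Against parental cells, the abundant keratins KRT18, KRT19, KRT8, and KRT7 were mostly called lower, and calls in both directions fell among the rarer ones. A gene was called when its limma adjusted p was under 0.05 and its change was at least 1.5-fold. In SAP30-KO1, 4 of the 11 tested keratins were called lower and 1 higher, where 7.86% and 7.80% of all 13540 genes tested were. SAP30-KO2 had 5 lower and 1 higher, beside 8.12% and 7.44% of all genes. In SIN3A/3B-DKO1 6 were lower and 1 higher, beside 8.66% and 7.76%, and in SIN3A/3B-DKO2 3 were lower and 2 higher, beside 7.56% and 6.00%. MLL1-KO1 had 4 lower and 2 higher, beside 16.3% and 6.89%, and MLL1-KO2 had 3 lower and 4 higher, beside 14.9% and 10.2%. Among all called genes, 70.3% in MLL1-KO1 and 59.3% in MLL1-KO2 were lower, against 51.6% and 48.4% with quantile normalization, which moved the median of all genes in MLL1-KO1 from -0.09 to 0.04. The median log2 fold change of the 11 was below that of all genes tested in each line, from -0.62 against 0.00 in SIN3A/3B-DKO1 to -0.17 against -0.04 in MLL1-KO2. The counts pool genes that moved in opposite directions, and each gene is given in turn. In bulk RNA, fewer keratin-expressing cells and less keratin RNA per cell cannot be told apart.

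**Figure D2:**
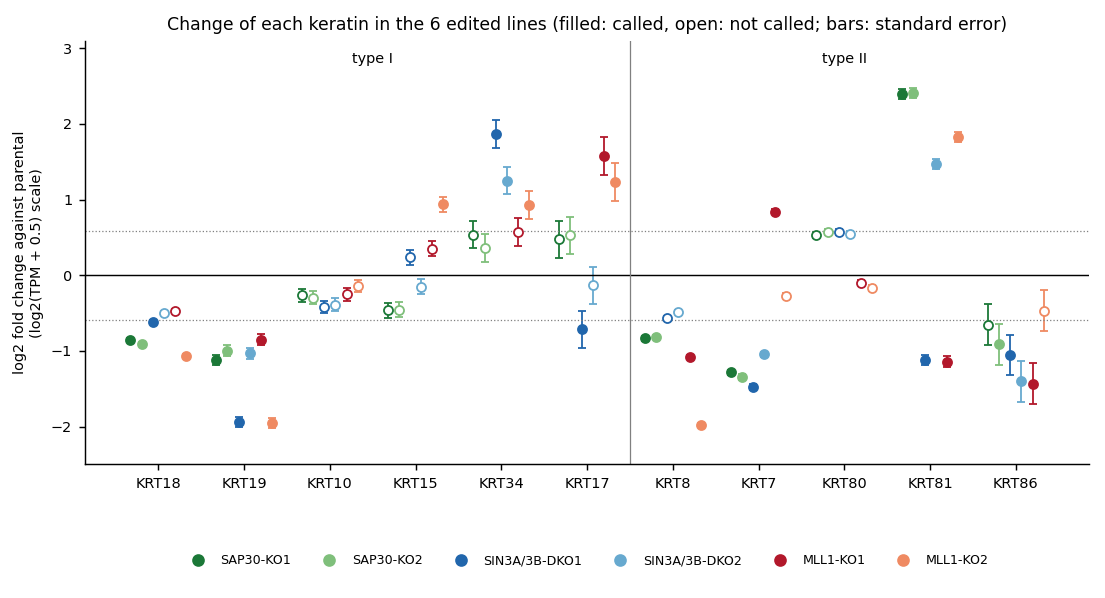
Log2 fold change against parental cells on the log2(TPM + 0.5) scale for each tested keratin in the 6 edited lines, with standard errors; filled points passed both thresholds and dotted lines mark 1.5-fold. KRT19 was called lower in all 6 lines, and KRT81 spanned -1.14 to 2.40.

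KRT18, the type I chain of the KRT8/KRT18 pair (chromosome 12, 53342655 to 53346690 in GRCh37, plus strand, 7 exons), was called lower in 4 lines. Its libraries read 414 and 427 TPM in SAP30-KO1, 409 and 403 TPM in SAP30-KO2, 501 and 492 TPM in SIN3A/3B-DKO1, 537 and 536 TPM in SIN3A/3B-DKO2, 551 and 547 TPM in MLL1-KO1, and 363 and 363 TPM in MLL1-KO2. All 12 edited libraries lay below both parental libraries. The log2 fold change was -0.86 in SAP30-KO1 (SE 0.03, adjusted p = 6.2e-09), -0.90 in SAP30-KO2 (adjusted p = 3.9e-09), -0.62 in SIN3A/3B-DKO1 (adjusted p = 4.1e-08), and -1.07 in MLL1-KO2 (adjusted p = 1.2e-10). In SIN3A/3B-DKO2 and MLL1-KO1 the estimates were -0.50 and -0.47, short of 1.5-fold, with adjusted p of 1.8e-07 and 8.3e-08. The SIN3A/3B-DKO1 call sat close to the fold minimum and was not made by limma-voom on the recovered reads (-0.58).

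KRT8, its type II partner (chromosome 12, 53290971 to 53343738, minus strand), was called lower in the SAP30-KO and MLL1-KO lines. It read 232 and 233 TPM in SAP30-KO1, 236 and 236 TPM in SAP30-KO2, 284 and 278 TPM in SIN3A/3B-DKO1, 305 and 289 TPM in SIN3A/3B-DKO2, 197 and 196 TPM in MLL1-KO1, and 105 and 105 TPM in MLL1-KO2. The parental and edited libraries did not overlap, and MLL1-KO2 was lowest at 3.95-fold below the parental mean. Log2 fold changes were -0.83 and -0.81 in SAP30-KO1 and SAP30-KO2 (SE 0.03, adjusted p = 1.2e-08 and 9.6e-09) and -1.08 and -1.98 in MLL1-KO1 and MLL1-KO2 (adjusted p = 3.5e-10 and 3.1e-12). In the SIN3A/3B-DKO lines they were -0.56 and -0.48, short of 1.5-fold (adjusted p = 1.3e-07 and 4.2e-07). With quantile normalization KRT8 was called lower in SIN3A/3B-DKO1 (-0.59). The ratio of KRT8 to KRT18 TPM was 0.552 and 0.539 in parental libraries and 0.539 to 0.585 in the 8 edited libraries other than MLL1-KO. Both MLL1-KO1 libraries gave 0.358, and both MLL1-KO2 libraries gave 0.289. KRT8 thus stood lower relative to KRT18 in the 4 MLL1-KO libraries than in any other; this ratio was not tested. The KRT8 and KRT18 annotations overlap at their 5' ends on opposite strands, whether counting used strand is not given in the sources used here, and 39.2% and 36.7% of their 50-base windows also occur in other annotated genes, mostly their own pseudogenes, so their levels are less certain than those of KRT7 and KRT19.

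KRT19, the smallest type I keratin and one without a tail domain (chromosome 17, 39679869 to 39684560, minus strand, 6 exons), fell in every edited line. It read 204 and 198 TPM in SAP30-KO1, 223 and 216 TPM in SAP30-KO2, 113 and 114 TPM in SIN3A/3B-DKO1, 234 and 195 TPM in SIN3A/3B-DKO2, 238 and 247 TPM in MLL1-KO1, and 109 and 116 TPM in MLL1-KO2. SIN3A/3B-DKO1 and MLL1-KO2 were lowest, at 3.86-fold and 3.88-fold below the parental mean, and no edited library reached the parental range. Log2 fold changes were -1.12, -0.995, -1.94, -1.03, -0.85, and -1.95 in the same order of lines (SE 0.07), with a largest adjusted p of 1.2e-06. The 50 tested genes nearest to KRT19 also stood lower, with a median log2 fold change of -0.26 to -0.47 over the 6 lines. With that median subtracted, the KRT19 estimate in MLL1-KO1 was -0.38 and no longer called, and it was called in the other 5 lines. The part of this neighbourhood in the KRT19 result was not tested.

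KRT7, the type II keratin of ducts (chromosome 12, 52626304 to 52645970, plus strand, 9 exons), was called lower in 4 lines and higher in MLL1-KO1. It read 109 and 114 TPM in SAP30-KO1, and 105 and 108 TPM in SAP30-KO2. SIN3A/3B-DKO1 stood at 98.9 and 95.4 TPM, SIN3A/3B-DKO2 at 134 and 129 TPM. In MLL1-KO1 it read 483 and 489.7 TPM and in MLL1-KO2 229 and 221 TPM. KRT7 therefore fell by 1.28 and 1.34 on the log2 scale in the SAP30-KO lines (SE 0.04, adjusted p = 2.7e-09 and 2.1e-09) and by 1.48 and 1.04 in the SIN3A/3B-DKO lines (adjusted p = 6.5e-10 and 1.2e-08). It rose by 0.84 in MLL1-KO1 (adjusted p = 8e-09), and MLL1-KO2 gave -0.27, which was not called. The ratio of KRT7 to KRT19 was 0.633 and 0.606 in parental libraries, 0.472 to 0.577 in SAP30-KO libraries, 0.873 and 0.838 for SIN3A/3B-DKO1, 0.571 and 0.661 for SIN3A/3B-DKO2, and 1.90 to 2.10 in the 4 MLL1-KO libraries; it was not tested. Genes next to KRT7 were level, with a neighbour median of -0.02 to 0.02.

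KRT81, a type II hair keratin (chromosome 12, 52679697 to 52685318, minus strand, 9 exons), had the largest rises and moved in opposite directions within 2 genotypes. It read 85.5 and 83.7 TPM in SAP30-KO1, 87.2 and 83.5 TPM in SAP30-KO2, 46.3 and 42.7 TPM in SIN3A/3B-DKO2, and 55.2 and 59.0 TPM in MLL1-KO2. In SIN3A/3B-DKO1 it read 6.60 and 7.37 TPM and in MLL1-KO1 7.06 and 6.65 TPM. The first 4 lines lay above the parental 15.2 and 16.2 TPM and the last pair of lines below it, with no overlap. Log2 fold changes were 2.39 and 2.40 in SAP30-KO1 and SAP30-KO2 (SE 0.07, adjusted p = 2.7e-09 and 2.4e-09), 1.47 in SIN3A/3B-DKO2 (adjusted p = 6.9e-08), and 1.83 in MLL1-KO2 (adjusted p = 2e-09). They were -1.12 in SIN3A/3B-DKO1 (adjusted p = 3e-07) and -1.14 in MLL1-KO1 (adjusted p = 9.6e-08). The 50 nearest tested genes had a median of -0.02 to 0.02.

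KRT81 shares sequence with KRT86, a type II hair keratin that encloses it on the opposite strand (52643084 to 52702947, plus strand). The coding sequences of their canonical transcripts are identical over 605 bases, from coding position 61 to 665, and 44.6% of the 50-base windows of KRT81 also occur in another gene. The stretch from coding position 606 to 765 is shown because it marks where the copies part: the first 60 bases are shared and capitals mark the 5 positions of the 160 at which they differ. KRT81 lies at chr12:52681903-52683032 (minus strand, exons 3 to 5) and KRT86 at chr12:52697922-52699053 (plus strand, exons 5 to 7) in GRCh37.
KRT81: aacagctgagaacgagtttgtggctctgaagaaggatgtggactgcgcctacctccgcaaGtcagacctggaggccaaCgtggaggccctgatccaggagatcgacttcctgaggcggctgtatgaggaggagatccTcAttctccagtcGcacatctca
KRT86: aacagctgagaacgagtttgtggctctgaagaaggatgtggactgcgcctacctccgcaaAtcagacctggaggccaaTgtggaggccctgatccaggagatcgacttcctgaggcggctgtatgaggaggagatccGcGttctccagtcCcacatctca
How the authors' counting treated reads in such a stretch is not given in the sources used here, so the values of both genes are uncertain.

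KRT86 itself stayed low and did not rise where KRT81 rose. Like KRT81, it was called lower in SIN3A/3B-DKO1 and MLL1-KO1. It read 2.33 and 2.46 TPM in parental cells, 1.26 and 1.42 TPM in SAP30-KO1, 0.916 and 1.17 TPM in SAP30-KO2, 0.845 and 0.945 TPM in SIN3A/3B-DKO1, 0.739 and 0.464 TPM in SIN3A/3B-DKO2, 0.939 and 0.298 TPM in MLL1-KO1, and 1.98 and 1.26 TPM in MLL1-KO2. All 12 edited libraries were below the parental libraries, at 5 to 28 reads each. It was called lower in SIN3A/3B-DKO1 (-1.05, SE 0.27, adjusted p = 0.0064), SIN3A/3B-DKO2 (-1.40, adjusted p = 0.0013), MLL1-KO1 (-1.43, adjusted p = 0.00079), and SAP30-KO2 (-0.91, adjusted p = 0.015). The SAP30-KO2 call was lost without parental replicate 1 (-0.95, adjusted p = 0.051), parental replicate 2 (-0.88, 0.066), or SAP30-KO2 replicate 1 (-0.79, 0.087). SAP30-KO1 (-0.65, adjusted p = 0.063) and MLL1-KO2 (-0.47) were not called. SAP30-KO1 was called with quantile normalization (adjusted p = 0.049), with only the libraries compared (0.015), and by limma-voom on recovered reads (-0.80, adjusted p = 0.046).

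KRT80 differed from parental cells by less than the fold minimum in all 6 lines. It read 151 and 152 TPM in SAP30-KO1, 161 and 151 TPM in SAP30-KO2, 156 and 155 TPM in SIN3A/3B-DKO1, with 157 and 149.6 TPM in SIN3A/3B-DKO2, all above the parental 104 and 105 TPM. In MLL1-KO1 it read 96.8 and 99.0 TPM and in MLL1-KO2 92.3 and 93.7 TPM, all below. No line was called, because the log2 fold changes of 0.53, 0.57, 0.57, and 0.55 in the first 4 lines (SE 0.04, largest adjusted p 6.4e-07) fell just short of 1.5-fold. Small changes of method crossed that line: limma-voom on recovered reads called SAP30-KO2 (0.59) and SIN3A/3B-DKO1 (0.61), and SAP30-KO2 was called without its replicate 2 (0.61). KRT10 was not called in any line either: it ranged from 21.0 to 27.5 TPM in edited libraries against 32.9 and 27.8 TPM in parental cells, with log2 fold changes of -0.14 to -0.42 beside a neighbour median of -0.33 to -0.47.

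KRT34, a type I hair keratin, was called higher in both SIN3A/3B-DKO lines and in MLL1-KO2. It read 0.974 and 0.834 TPM in parental cells, 1.30 and 1.81 TPM in SAP30-KO1, 1.33 and 1.28 TPM in SAP30-KO2, 4.54 and 4.68 TPM in SIN3A/3B-DKO1, 2.84 and 2.83 TPM in SIN3A/3B-DKO2, 2.0 and 1.24 TPM in MLL1-KO1, and 1.98 and 2.36 TPM in MLL1-KO2. All edited libraries lay above the parental ones, and the SIN3A/3B-DKO libraries were highest. It was called higher in SIN3A/3B-DKO1 (1.87, SE 0.18, adjusted p = 9.8e-06), SIN3A/3B-DKO2 (1.25, adjusted p = 0.00021), and MLL1-KO2 (0.93, adjusted p = 0.0011). SAP30-KO1 (0.54) and MLL1-KO1 (0.57) fell just short of the fold minimum. Each passed it with 1 library left out: SAP30-KO1 without its replicate 1 (0.72), and MLL1-KO1 without its replicate 2 (0.84) or parental replicate 1 (0.64). Both were called with quantile normalization (0.60 and 0.95) or a pseudocount of 0.1 (0.71 and 0.74). Median ratio scaling (0.64) and limma-voom (0.84) called MLL1-KO1 only. The neighbour median of KRT34 was -0.23 to -0.44 over the edited lines. With it subtracted, SAP30-KO1 (0.82), SAP30-KO2 (0.62), and MLL1-KO1 (1.01) were called, so KRT34 was then called higher in every edited line. KRT33B, the neighbouring hair keratin, was below the filter. SIN3A/3B-DKO1 held 13 and 12 reads of it, SIN3A/3B-DKO2 held 7 and 3, against 1 and 0 in parental cells and at most 2 in each of the other libraries. Reads of KRT34 were 66 and 65 in SIN3A/3B-DKO1, and 7.12% of its 50-base windows also occur in KRT33B.

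The 250 bases before the transcription starts of these adjacent hair keratin genes are shown because their levels were highest in the same lines; both are from RefSeq (GRCh38.p14, minus strand), and capitals mark a TATA box (TATAAA). KRT34 is at chr17:41382307-41382556 and KRT33B at chr17:41369814-41370063, with the box beginning 31 and 28 bases before the start.
KRT34: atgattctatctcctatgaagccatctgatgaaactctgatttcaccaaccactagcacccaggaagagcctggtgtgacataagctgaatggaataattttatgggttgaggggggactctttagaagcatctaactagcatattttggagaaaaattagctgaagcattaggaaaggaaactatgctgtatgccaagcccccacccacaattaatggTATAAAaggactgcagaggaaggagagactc
KRT33B: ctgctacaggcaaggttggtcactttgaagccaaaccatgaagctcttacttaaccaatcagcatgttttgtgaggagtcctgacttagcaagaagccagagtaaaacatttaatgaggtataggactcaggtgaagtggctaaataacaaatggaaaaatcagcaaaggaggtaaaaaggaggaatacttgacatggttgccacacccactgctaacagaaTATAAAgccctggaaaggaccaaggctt
TATAAA was found on either strand in 11 of the 19 member promoters held in the table and in 11.1% of all 27303 promoters of that length. The CpG-island type Sp1 motif GGGCGG was in 3 of the 19 and in 42.3% of all, CCAAT in 9 of the 19 and in 33.0%, and the AP-1 motif TGANTCA in 0 of the 19 and in 6.60%. Promoters of KRT7, KRT18, KRT19, KRT81, KRT80, KRT86, KRT15, and KRT17 were not in the table. The only tested keratins among the 19 were KRT8, KRT10, and KRT34. KRT10 and KRT34 had TATAAA, and KRT8 had none of these motifs.

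KRT17, a type I keratin of injured and basal epithelium, was called higher in both MLL1-KO lines. It read 2.21 and 1.09 TPM in parental cells, 2.38 and 2.38 TPM in SAP30-KO1, 2.36 and 2.64 TPM in SAP30-KO2, 0.823 and 0.706 TPM in SIN3A/3B-DKO1, 1.89 and 1.0 TPM in SIN3A/3B-DKO2, 5.61 and 5.77 TPM in MLL1-KO1, and 4.41 and 4.33 TPM in MLL1-KO2. The MLL1-KO libraries lay above all others. Log2 fold changes there were 1.58 and 1.23 (SE 0.25, adjusted p = 0.00022 and 0.0011). The lower call in SIN3A/3B-DKO1 (-0.72, adjusted p = 0.029) was lost without parental replicate 1 (-0.33), SIN3A/3B-DKO1 replicate 1 (-0.78), or SIN3A/3B-DKO1 replicate 2 (-0.65). That call was also lost with a pseudocount of 1 (-0.55) or the neighbour median subtracted (-0.47). A limma fit on only the libraries compared (adjusted p = 0.11) and limma-voom on recovered reads (adjusted p = 0.050) did not make it either. The parental libraries differed from each other by 25 against 12 reads, and without the first of them KRT17 was also called higher in SAP30-KO1 (0.86) and SAP30-KO2 (0.91), where it otherwise was not (0.47 and 0.53). Other annotated genes hold 17.4% of its 50-base windows, so its level is also uncertain.

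KRT15, a type I keratin of basal and stem-like cells, was called higher in MLL1-KO2. It read 5.37 and 4.66 TPM in parental cells, 3.32 to 3.72 TPM in the 4 SAP30-KO libraries, 6.21 and 5.77 TPM in SIN3A/3B-DKO1, 4.71 and 4.22 TPM in SIN3A/3B-DKO2, 6.40 and 6.63 TPM in MLL1-KO1, and 10.4 and 9.76 TPM in MLL1-KO2. The SAP30-KO libraries lay below and the MLL1-KO libraries above the parental ones. The log2 fold change was 0.94 in MLL1-KO2 (SE 0.10, adjusted p = 9.3e-06) and 0.35 in MLL1-KO1, which was not called but was with quantile normalization (0.59) or with the neighbour median subtracted (0.83). In the SAP30-KO lines both estimates were -0.46, short of the fold minimum. KRT15 and KRT17 stood higher in the MLL1-KO lines although the 50 genes nearest to them had medians of -0.37 to -0.49 there.

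**Figure D3:**
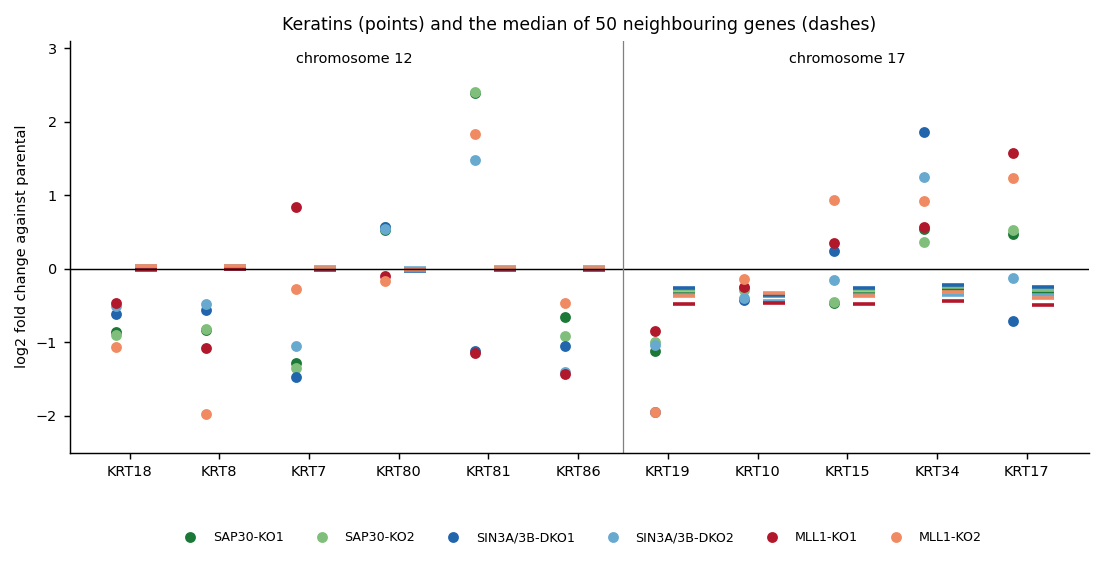
Log2 fold change against parental cells of each tested keratin (points) beside the median of its 50 nearest tested genes that are not keratins (dashes), in the 6 edited lines. Dashes lay near 0 on chromosome 12, from -0.03 to 0.04, and between -0.23 and -0.49 on chromosome 17, where KRT19, KRT10, KRT15, KRT34, and KRT17 are.

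Summed over all members of a class, both classes stood lower in every edited line than in parental cells, and the ratio of type I to type II was lower too. Type I keratins summed to 1219.6 and 1256 TPM in parental cells, 651 to 666 TPM in the SAP30-KO libraries, 651 and 639 TPM in SIN3A/3B-DKO1, 805 and 762 TPM in SIN3A/3B-DKO2, 830.4 and 834 TPM in MLL1-KO1, and 517 and 525 TPM in MLL1-KO2. Type II keratins summed to 807 and 812 TPM in parental cells, 579 to 591 TPM in the SAP30-KO libraries, 547 and 537 TPM in SIN3A/3B-DKO1, 643 and 611 TPM in SIN3A/3B-DKO2, 785 and 792 TPM in MLL1-KO1, and 484 and 480.5 TPM in MLL1-KO2. The classes did not follow each other library by library: in MLL1-KO1 the type II sum was close to the parental one, with KRT7 as a large share of it, and the type I sum lay well below. The ratio of type I to type II TPM was 1.51 and 1.55 in parental cells, 1.12 to 1.13 in SAP30-KO, 1.19 to 1.25 in SIN3A/3B-DKO, and 1.05 to 1.09 in MLL1-KO libraries. The parental ratio was above that of all 12 edited libraries. These sums and ratios cover only the members, so without keratins such as KRT5 and KRT6A, and are described with no test. The type I sum consists mostly of KRT18 and KRT19. The medians over genes, given below, go the other way, with type I above type II in each line.

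**Figure D4:**
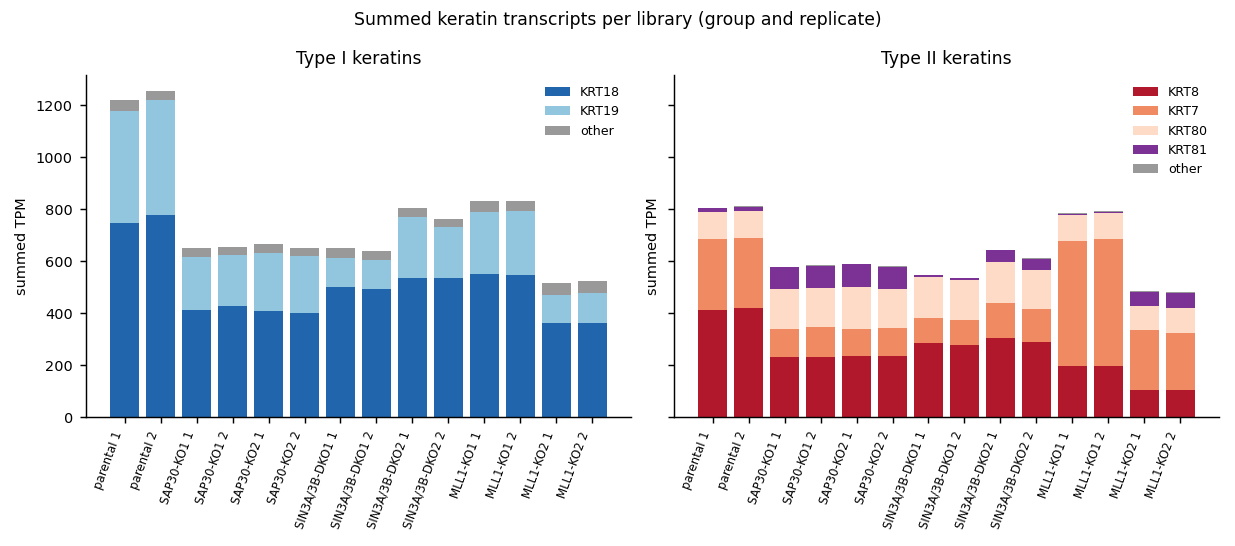
Summed TPM of type I (left) and type II (right) keratins in each of the 14 libraries, on a linear axis from 0, with the main genes as segments. The type I bars reach 1219.6 and 1256 TPM in parental cells and 517 to 834 TPM in edited lines, and the KRT7 segment is widest in MLL1-KO1.

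The make-up of the keratin pool, meaning the summed TPM of all members, also shifted. KRT7, KRT8, KRT18, and KRT19 together held 77.5% to 78.2% of keratin TPM in the SAP30-KO libraries, 83.2% to 83.7% in the SIN3A/3B-DKO libraries, 80.5% and 80.1% in those of MLL1-KO2, and 90.9% and 91.0% in those of MLL1-KO1. In SAP30-KO the remainder was mainly KRT80, with 12.2% to 12.8% of the pool in SAP30-KO libraries against 5.08% and 5.14% in parental ones, and in KRT81, with 6.74% to 6.94% against 0.751% and 0.784%. KRT81 held 5.51% and 5.86% in MLL1-KO2. In MLL1-KO1, KRT7 alone held 29.9% and 30.1% of the pool, against 13.5% and 13.0% in parental cells. By class, calls and medians are given with no test of the difference. In SAP30-KO1, 2 of 6 type I genes were lower and 0 higher, and 2 of 5 type II genes were lower and 1 higher, and in MLL1-KO2 2 of 6 type I genes were lower and 3 higher, and 1 of 5 type II genes was lower and 1 higher. In MLL1-KO1 1 of 6 type I genes was lower and 1 higher, and 3 of 5 type II genes were lower and 1 higher. SAP30-KO2 had 2 lower and 0 higher of type I and 3 lower and 1 higher of type II, SIN3A/3B-DKO1 3 lower and 1 higher against 3 lower and 0 higher, and SIN3A/3B-DKO2 1 lower and 1 higher against 2 lower and 1 higher. The median log2 fold change of type I was above that of type II in each line, by the least in SIN3A/3B-DKO2 (-0.27 against -0.48) and by the most in MLL1-KO1 (0.05 against -1.08), with 0.39 against -0.27 in MLL1-KO2.

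Lines of the same genotype were then compared directly. Between SAP30-KO1 and SAP30-KO2, 0 of the 11 keratins were called by limma, 0 had an unadjusted p under 0.05, and 0 were called by limma-voom, where 0.148% of all genes were called. Between SIN3A/3B-DKO1 and SIN3A/3B-DKO2, 2 were called beside 2.23% of all genes, and both were lower in SIN3A/3B-DKO1: KRT81 (-2.59, SE 0.07, adjusted p = 2.6e-09) and KRT19 (-0.91, adjusted p = 2.3e-05). A fit on those 4 libraries alone did not call KRT19 (adjusted p = 0.086). Between MLL1-KO1 and MLL1-KO2, 7 were called beside 10.4% of all genes. KRT7 (1.11), KRT19 (1.10), KRT8 (0.90), and KRT18 (0.60) were higher in MLL1-KO1, whereas KRT81 (-2.97), KRT86 (-0.96), and KRT15 (-0.59) were lower there, with a largest adjusted p of 0.014. The KRT86 difference was lost without MLL1-KO1 replicate 2 (-0.54) or MLL1-KO2 replicate 1 (-0.72), and that of KRT15 without MLL1-KO1 replicate 1 (-0.56) or MLL1-KO2 replicate 1 (-0.55). With quantile normalization the KRT15 and KRT18 differences (-0.49 and 0.56) fell short of the fold minimum.

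Genotypes were then compared over both lines of each. Between SAP30-KO and SIN3A/3B-DKO, 3 keratins were called beside 7.47% of all genes: KRT81 (2.22) and KRT17 (0.93) were higher and KRT34 (-1.11) lower in SAP30-KO. The KRT81 value averages the opposed SIN3A/3B-DKO lines. MLL1-KO against SAP30-KO gave 6 beside 19.8% of all genes: KRT7 (1.60), KRT15 (1.10), and KRT17 (0.90) were higher and KRT81 (-2.05), KRT8 (-0.70), and KRT80 (-0.68) lower in MLL1-KO. With median ratio scaling KRT80 (-0.58) was just short of a call, and the KRT81 value averages the opposed MLL1-KO lines. MLL1-KO against SIN3A/3B-DKO also gave 6, beside 19.9% of all genes: KRT17 (1.83), KRT7 (1.55), and KRT15 (0.60) were higher and KRT8 (-1.01), KRT34 (-0.81), and KRT80 (-0.69) lower. The KRT15 call in the last comparison was lost without SIN3A/3B-DKO1 replicate 2 (0.58), SIN3A/3B-DKO2 replicate 2 (0.57), or MLL1-KO2 replicate 1 (0.58).

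The 25 members below the filter were mostly silent. At 0 in every library were 6 genes: KRT75, KRT84, KRT3, KRT4, KRT37, and KRT13, which allows up to 3 reads per library for counting error alone. A further 13 never passed 3 reads in a library: KRT85, KRT82, KRT77, KRT76, KRT78, KRT222, KRT27, KRT28, KRT23, KRT39, KRT32, KRT36, and KRT42P. The other 6 passed 3 reads somewhere: KRT83 (0 to 10 reads), KRT79 (0 to 4), KRT33B (0 to 13), KRT9 (0 to 6), KRT14 (0 to 10), and KRT16 (0 to 15). KRT16, the stress-induced type I keratin, showed 8 and 5 reads for MLL1-KO1, with 4 and 15 for MLL1-KO2, against 0 to 3 elsewhere. KRT9, the palm and sole keratin, had 3, 2, 6, and 2 reads in the MLL1-KO libraries and 0 in the other 10. KRT14, the basal type I keratin, had 10 and 2 reads for MLL1-KO1, 3 and 1 in MLL1-KO2, 3 and 3 in parental cells, and 0 to 3 elsewhere. KRT83, a hair keratin beside KRT86, had 3 and 9 reads in SAP30-KO1, then 8 and 10 for SAP30-KO2, 3 and 3 in parental cells, 0 to 1 in SIN3A/3B-DKO1 and MLL1-KO1, and 2 to 4 in SIN3A/3B-DKO2 and MLL1-KO2. At this depth differences between such counts were not tested.

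**Figure D5:**
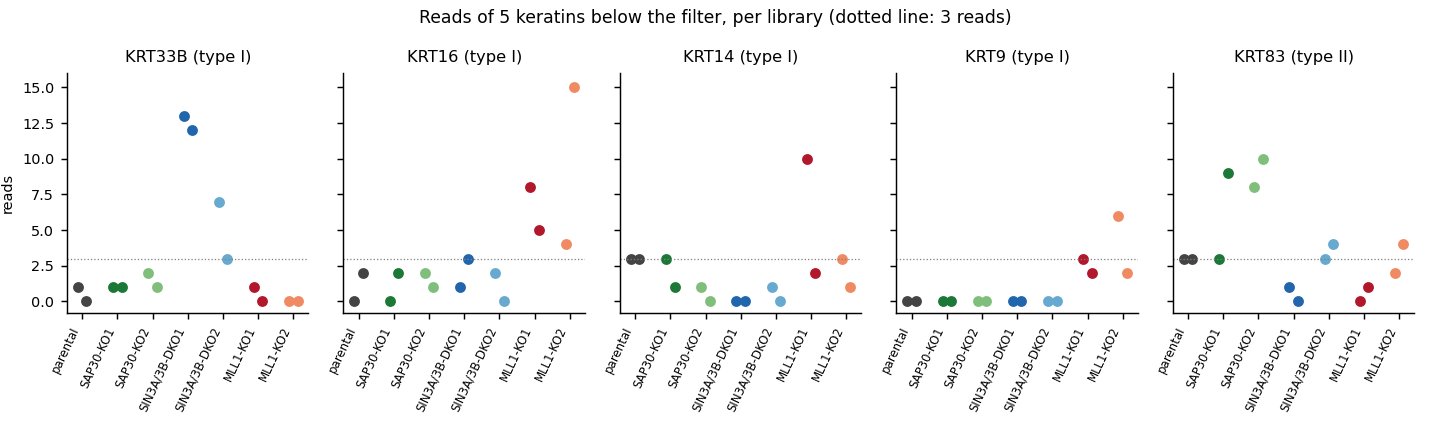
Reads of 5 keratins below the filter in each of the 14 libraries, on a linear axis; points are single libraries and the dotted line marks 3 reads. KRT33B reached 13 reads in SIN3A/3B-DKO1, KRT16 15 reads in MLL1-KO2, and KRT9 had reads in the 4 MLL1-KO libraries and in no other.

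Keratin filaments attach to desmosomes and hemidesmosomes, and 13 of 18 listed genes of these junctions and their plakin linkers were tested. In SAP30-KO1 6 were called lower and 0 higher, while SAP30-KO2 and each double knockout had 5 lower and 0 higher. In MLL1-KO1 5 were lower and 3 higher, and in MLL1-KO2 6 lower and 4 higher, beside the shares of all genes given above. DSP, the desmoplakin that binds keratin filaments, was at 77.0 and 71.2 TPM in parental cells and 14.2 to 36.5 TPM in edited libraries, and JUP, plakoglobin, at 17.4 and 19.9 TPM against 1.35 to 4.59 TPM. Both were called lower in all 6 lines, by -1.08 to -2.34 and -2.04 to -3.21 on the log2 scale. ITGB4, the hemidesmosomal integrin chain linked to keratins through plectin, was called lower in the SAP30-KO and SIN3A/3B-DKO lines (-1.0 to -3.49) and higher in the MLL1-KO lines (1.63 and 1.87). COL17A1, another hemidesmosome component, and the desmosomal plakophilin PKP3 were called higher in both MLL1-KO lines (1.45 and 2.25, and 0.66 and 1.03). The PKP3 call in MLL1-KO1 was lost without MLL1-KO1 replicate 1 (0.55).

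Of 8 tested genes of other intermediate filaments, 0 to 3 were called lower and 0 to 1 higher in each line, where 7.56% to 16.3% of all genes were lower and 6.00% to 10.2% higher. VIM, the main filament of mesenchymal cells, stood at 5741 to 8805 TPM, above the summed keratin members in every library, and was called higher in MLL1-KO1 (0.59). SYNM, synemin, was called lower in the SIN3A/3B-DKO lines (-0.59 and -0.61) and MLL1-KO lines (-1.10 and -0.73). The SIN3A/3B-DKO1 call was lost without parental replicate 1 (-0.56) or SIN3A/3B-DKO1 replicate 1 (-0.57). That call was also lost with a pseudocount of 1 (-0.575), quantile normalization (-0.57), limma-voom (-0.58), or the neighbour median subtracted (-0.56). The SIN3A/3B-DKO2 call was lost without parental replicate 1 (-0.58) or SIN3A/3B-DKO2 replicate 1 (-0.50). GFAP, the astrocyte filament, was at 0.913 to 3.39 TPM outside the MLL1-KO lines and at most 0.183 TPM in them, and was called lower there (-2.04 and -1.81). It was called higher in SAP30-KO2 (0.73), a call lost with a pseudocount of 0.1 (0.86, adjusted p = 0.050) or with the neighbour median subtracted (0.55).

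Among 12 tested transcription factors of epithelial identity and of its loss, 2 to 4 were called lower and 0 to 4 higher per line, beside the same shares of all genes. ELF3 was at 5.61 and 6.07 TPM in parental cells and 0 to 2.18 TPM in edited libraries, and KLF5 at 55.4 and 56.8 TPM against at most 26.2 TPM. Both epithelial activators were called lower in all 6 lines, as KRT19, DSP, and JUP were. Others of the list went the other way. EHF was called higher in MLL1-KO1 (1.16) and KLF4 in SIN3A/3B-DKO1 (0.72), each in that line only. The median log2 fold change of the list was -0.04 to 0.05 over the 6 lines. TFAP2C, a factor of luminal and trophoblast cells, was at 31.5 TPM in both parental libraries and 46.6 to 149 TPM in edited ones, and was called higher in 5 lines, with SIN3A/3B-DKO2 short of the fold minimum (0.56). SNAI2, a repressor of epithelial genes, was called higher in both MLL1-KO lines (1.20 and 1.11), and GRHL1 lower in both (-0.87 and -1.02), the first lost without parental replicate 1 (-0.55) and both lost with quantile normalization (-0.39 and -0.54). Of the 3 tested cornified-envelope and filament partners, 0 were called by limma and 0 by limma-voom in each of the 6 lines, with 1 to 2 at an unadjusted p under 0.05. Among them, SFN had a limma adjusted p of at most 0.019 in every line and missed only the fold minimum. Its log2 fold changes ran from -0.48 in SIN3A/3B-DKO2 to 0.43 in MLL1-KO1. Of the 4 luminal markers 3 were tested, and EPCAM and CDH1 were called lower in all 6 lines, EPCAM from 19.2 and 19.1 TPM to 5.33 to 12.6 TPM and CDH1 from 1.07 and 1.25 TPM to 0 to 0.282 TPM, whereas GATA3 was called in none (log2 fold change -0.49 to 0.44). Of the myoepithelial markers ACTA2 was called lower in all 6 lines and MYLK in none. The part of a change in cell state in the keratin results was not tested.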

How the data were processed

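mRNA libraries (KAPA mRNA Hyper Prep, Illumina NextSeq) were sequenced by the authors from 14 samples. The submitters' processing notes name FastQC 0.11.2, TopHat, featureCounts, and hg19; strand settings are not given in the sources used here. The table was deposited as RPKM, but every column adds up to 1000000, so the deposited values are TPM. The test had been designed for RPKM on a log scale and was kept. Because TPM sum to a constant, a rise of some genes lowers the others, and total RNA per cell cannot be seen. Low values moved in whole-read steps, from which reads were recovered for 18519 of 18519 genes above 0 (100.0%, tolerance 0.02 reads); intervals and limits from them cover counting error only.

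Genes at 1 TPM or more in at least 2 libraries (13540) were fitted as log2(TPM + 0.5) with limma 3.58.1 (R 4.3.3), trended variance, 7 group means over all 14 libraries, 7 residual and 3.6 prior degrees of freedom. Fold changes on this scale understate those of low genes. Calls needed a Benjamini-Hochberg adjusted p under 0.05 over all genes tested and 1.5-fold. The procedure was tested on simulated data. Positions and transcripts were GENCODE 44 lifted to GRCh37, in which 12152 tested genes (89.7%) had a position. Promoters were RefSeq, GRCh38.p14; 19 members matched by symbol.

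Members and gene lists were chosen with earlier results of these data known. Every tested member is named; those at 10 TPM or more, or called in both lines of a genotype, are given in every library, and each list by its counts and up to 3 genes a direction with the largest mean change among those called in both lines of a genotype. Alternatives were other pseudocounts, filters, scalings, fold minima, libraries, a replicate block, limma-voom on recovered reads, and subtraction of the median of 50 neighbouring genes. Columns of other samples were not present.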

Additional observations from a re-analysis of the deposited data

Results flagged for a closer look

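Keratins whose effect differed between lines of a genotype, or between genotypes, by the direct test in the limma fit (adjusted p under 0.05 and 1.5-fold) are listed with the log2 difference, the first-named line or genotype minus the other. For SIN3A/3B-DKO1 against SIN3A/3B-DKO2 these were KRT81 (-2.59) and KRT19 (-0.91). For MLL1-KO1 against MLL1-KO2 they were KRT7 (1.11), KRT81 (-2.97), KRT86 (-0.96), KRT8 (0.90), KRT18 (0.60), KRT15 (-0.59), and KRT19 (1.10). For SAP30-KO against SIN3A/3B-DKO they were KRT81 (2.22), KRT34 (-1.11), and KRT17 (0.93). For MLL1-KO against SAP30-KO they were KRT80 (-0.68), KRT7 (1.60), KRT81 (-2.05), KRT8 (-0.70), KRT15 (1.10), and KRT17 (0.90). For MLL1-KO against SIN3A/3B-DKO they were KRT80 (-0.69), KRT7 (1.55), KRT8 (-1.01), KRT34 (-0.81), KRT15 (0.60), and KRT17 (1.83). The 2 parental libraries take no part in these differences, except through the spread that the fit shares over all 14 libraries. An edited line is a pool of clones, and the pool cannot be told apart from the line.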

How the results depend on the processing

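The number of keratins called was recomputed under 300 combinations of comparison and alternative, of which 287 stayed within 1.5 times. The 300 include fits without a library from neither side of the comparison, and fits with the replicate block. Such fits keep every fold change and can alter only the spread, so the share of 287 overstates how much was varied. With a 2-fold minimum, SAP30-KO1 had 3 calls against parental cells, SAP30-KO2 2, SIN3A/3B-DKO1 against SIN3A/3B-DKO2 1, MLL1-KO1 against MLL1-KO2 3, MLL1-KO against SAP30-KO 3, and MLL1-KO against SIN3A/3B-DKO 3. With no fold minimum, SAP30-KO1 had 9, SIN3A/3B-DKO2 9, MLL1-KO1 11, SIN3A/3B-DKO1 against SIN3A/3B-DKO2 5, and SAP30-KO against SIN3A/3B-DKO 7. SAP30-KO against SIN3A/3B-DKO had 5 without the filter on low values, where more genes are tested, and SIN3A/3B-DKO1 against SIN3A/3B-DKO2 had 1 when only the libraries compared were fitted. The 2 scaling alternatives kept every count within 1.5 times. Counts with another fold minimum come from the same fit and differ only by that threshold. For the changes without the filter and with only the libraries compared, the cause was not tested.

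Of 1880 recomputed fold changes of single genes, 1801 kept their direction and their side of the thresholds, 42 lost a call, 27 gained one, and 10 changed sign, none of them called before or after. With the neighbour median subtracted, KRT10 became 0.11 in SAP30-KO1, 0.0814 in SAP30-KO2, 0.0481 in SIN3A/3B-DKO2, 0.21 in MLL1-KO1, and 0.19 in MLL1-KO2, and in SIN3A/3B-DKO2 KRT15 became 0.21 and KRT17 0.22. With 1 library left out, KRT17 in SIN3A/3B-DKO2 ran from -0.52 to 0.25: it was -0.52 without parental replicate 2, 0.25 without parental replicate 1 and 0.20 without SIN3A/3B-DKO2 replicate 2, and KRT80 in MLL1-KO1 was 0.0001 with median ratio scaling. Quantile normalization moved the share of lower calls among all called genes from 70.3% to 51.6% in MLL1-KO1 and from 59.3% to 48.4% in MLL1-KO2, with 8 and 7 keratins called there. Same-numbered libraries did not deviate together (mean correlation 0.01, from -0.07 to 0.08 over 21 pairs of groups), so no shift shared by replicate number was seen. Whether same-numbered libraries were prepared together cannot be told from this. With the replicate block the 12 counts were the same as without it (5 in SAP30-KO1, 6 in SAP30-KO2). Each group has 1 library of each number, so the block could not move a fold change, only the spread. Leaving out 1 library leaves a group with 1 sample, assumed to vary like the others. Genes with few reads, such as KRT86, KRT34, and KRT17, limit the precision most.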
